A study of Homo sapiens with 372 samples.

Results

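Mitotic kinesins are motor proteins that walk along, slide or take apart microtubules while a cell divides. The 10 described here are KIF11, KIF14, KIF15, KIF18A, KIF20A, KIF20B, KIF22, KIF23, KIF2C and KIF4A, taken by gene symbol from a table of 9664 genes. They were chosen by name and function and by no rule on their values. Their mRNAs are made mostly from S phase to mitosis, so in a growing culture some cells hold many of them and others few. Microtubules are also what paclitaxel acts on, since the drug stabilizes them and holds dividing cells in mitosis.

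The cells were A2780, an established human ovarian cancer line grown in culture and trypsinized before capture. Single cells were captured on the Fluidigm C1 system and sequenced with Smart-seq2, a full-length method for polyA-tailed RNA, after spike-in RNAs had been added to every well. The 6 conditions were an untreated control (46 cells), 5 nM paclitaxel for 16 h (Pac 16 h, 56 cells) and 48 h (Pac 48 h, 53 cells), 75 µM of the cyclooxygenase inhibitor celecoxib for 2 h (Cele 2 h, 63 cells) and 16 h (Cele 16 h, 61 cells), and both drugs at these doses for 16 h (the combination, 59 cells). No condition had a named replicate culture, so each is 1 sample, no test between conditions was made, and every SD below is the spread over cells.

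Values are E-values, E = log2(N/10 + 1), where N is the abundance of a gene in TPM after scaling to the spike-in RNA of the same cell. TPM is per transcript length, so levels of different genes can be set side by side. A gene is called lower or higher when its mean E-value over cells differs by more than 0.58, which is log2 of 1.5. That is a rule of size and not a test, and a gene that does not differ can pass it through the spread between cells alone, so that single calls and small counts are descriptions of these cells. It was applied to the 9655 genes found in more than 30% of cells in any condition, which included all 10 kinesins. The scale understates differences of weakly expressed genes.

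A gene counts as detected in a cell at an E-value above 0, and the median control cell had 6630 genes detected. In the 5 treatments this median lay between 6125.5 and 6351. The median summed level per cell differed far more, and relative to control it was 0.50 times in Pac 16 h, 0.64 times in Pac 48 h, 0.59 times in Cele 2 h, 0.35 times in Cele 16 h, and 1.40 times with the combination. Because these totals shift every gene together, each difference was also computed after giving all cells the same total. Of the cell type markers looked for, VIM was detected in 76.1% of control cells and KRT18 in 23.9%, and COL1A2, a fibroblast collagen that some cancer lines also make, in 17.4% (10.7% to 32.8% over the conditions). The others were not analysed here. Condition and capture cannot be told apart, nor, save for Pac 48 h and the combination, which had 2 blocks each, can condition and the block of 96 library indices. Control and 31 cells of Pac 48 h shared block 4, Pac 16 h and 34 cells of the combination shared block 1, Cele 2 h and 22 cells of Pac 48 h shared block 2, and Cele 16 h and 25 cells of the combination shared block 3.

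The promoters of the kinesins share sequence features that the choice of genes did not use. Cell cycle genes of late phases often carry a cell cycle homology element, with the letters TTTGAA or TTCGAA, a short distance from a CCAAT box, which binds NF-Y. The window ran from 250 bases before to 50 bases after the RefSeq start (GRCh38.p14), and either strand was searched. In it 8 of the 10 kinesins held TTTGAA or TTCGAA. The share was 15.3% of the 7582 genes of the table that had a promoter sequence and 19.5% of all 27305 genes with one. CCAAT stood in 8 of the 10, against 44.4% of the table's genes, and both stood in 7 of the 10, against 6.62%. KIF20A and KIF2C held neither TTTGAA nor TTCGAA, KIF15 and KIF2C held no CCAAT, and a match of letters is a description and not a binding site. The 80 bases before the start are printed for 5 kinesins: the 3 that were lower in all 5 treatments on the deposited scale (KIF22, KIF20A and KIF4A), KIF23, where the matches lie closest, and KIF15, which was never called and held no CCAAT. Capitals mark the matches, where ATTGG is CCAAT and TTCAAA is TTTGAA read on the other strand.
KIF22: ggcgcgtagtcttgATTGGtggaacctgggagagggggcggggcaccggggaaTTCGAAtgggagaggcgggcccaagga
KIF20A: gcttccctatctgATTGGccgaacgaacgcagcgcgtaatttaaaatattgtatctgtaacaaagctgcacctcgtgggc
KIF4A: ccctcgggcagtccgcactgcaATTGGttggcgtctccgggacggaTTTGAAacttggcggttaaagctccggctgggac
KIF23: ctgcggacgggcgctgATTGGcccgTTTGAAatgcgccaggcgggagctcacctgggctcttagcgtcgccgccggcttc
KIF15: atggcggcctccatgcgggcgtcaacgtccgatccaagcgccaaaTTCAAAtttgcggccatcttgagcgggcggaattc
These stretches lie at chr16:29790671-29790750, chr5:138179032-138179111, chrX:70290024-70290103, chr15:69414269-69414348 and chr3:44761714-44761793, all on the plus strand. In KIF22 the first base of the CCAAT match lay 66 bases before the start and that of TTCGAA 27 bases before it, so that 39 bases separated them. The separation was 24 bases in KIF4A and 9 in KIF23. Among those not printed it was 25 in KIF11, 23 in KIF14, 35 in KIF18A and 122 in KIF20B, whose TTTGAA matches lay 25 and 31 bases after the start, so a short distance does not describe KIF20B.

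In untreated cells all 10 kinesins were expressed, at levels spread over much of the range of the table. KIF22 was the most abundant, with a mean E-value of 3.96 ± 1.39 (SD over 46 cells), above 85.2% of the genes compared. It was followed by KIF20B at 2.65 ± 1.73, KIF23 at 2.60 ± 1.84, KIF4A at 1.92 ± 1.43, KIF20A at 1.86 ± 1.58, KIF2C at 1.57 ± 1.64, KIF18A at 1.53 ± 1.30, KIF11 at 1.25 ± 1.25, KIF14 at 0.89 ± 0.88 and KIF15 at 0.78 ± 0.99, the last above 29.8% of genes. Neighbours in this order differed by less than their spread over cells. KIF22 stayed first in all 6 conditions, and KIF20B and KIF23 held the next 2 places. KIF20A, in the fifth place in control, stood between the seventh and the ninth in every treatment.

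In every condition single cells ranged from a kinesin not being detected to a high level. A gene that is not detected in a cell is not thereby absent from it. The lowest E-value was 0 for all 10 genes in all 6 conditions, and over the kinesins 45.1% of values were 0, compared with 34.9% over the whole table. The plot of E-values by cell shows the same shape for most genes: under treatment more cells lie on the zero line and fewer above it.

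**Figure D1:**
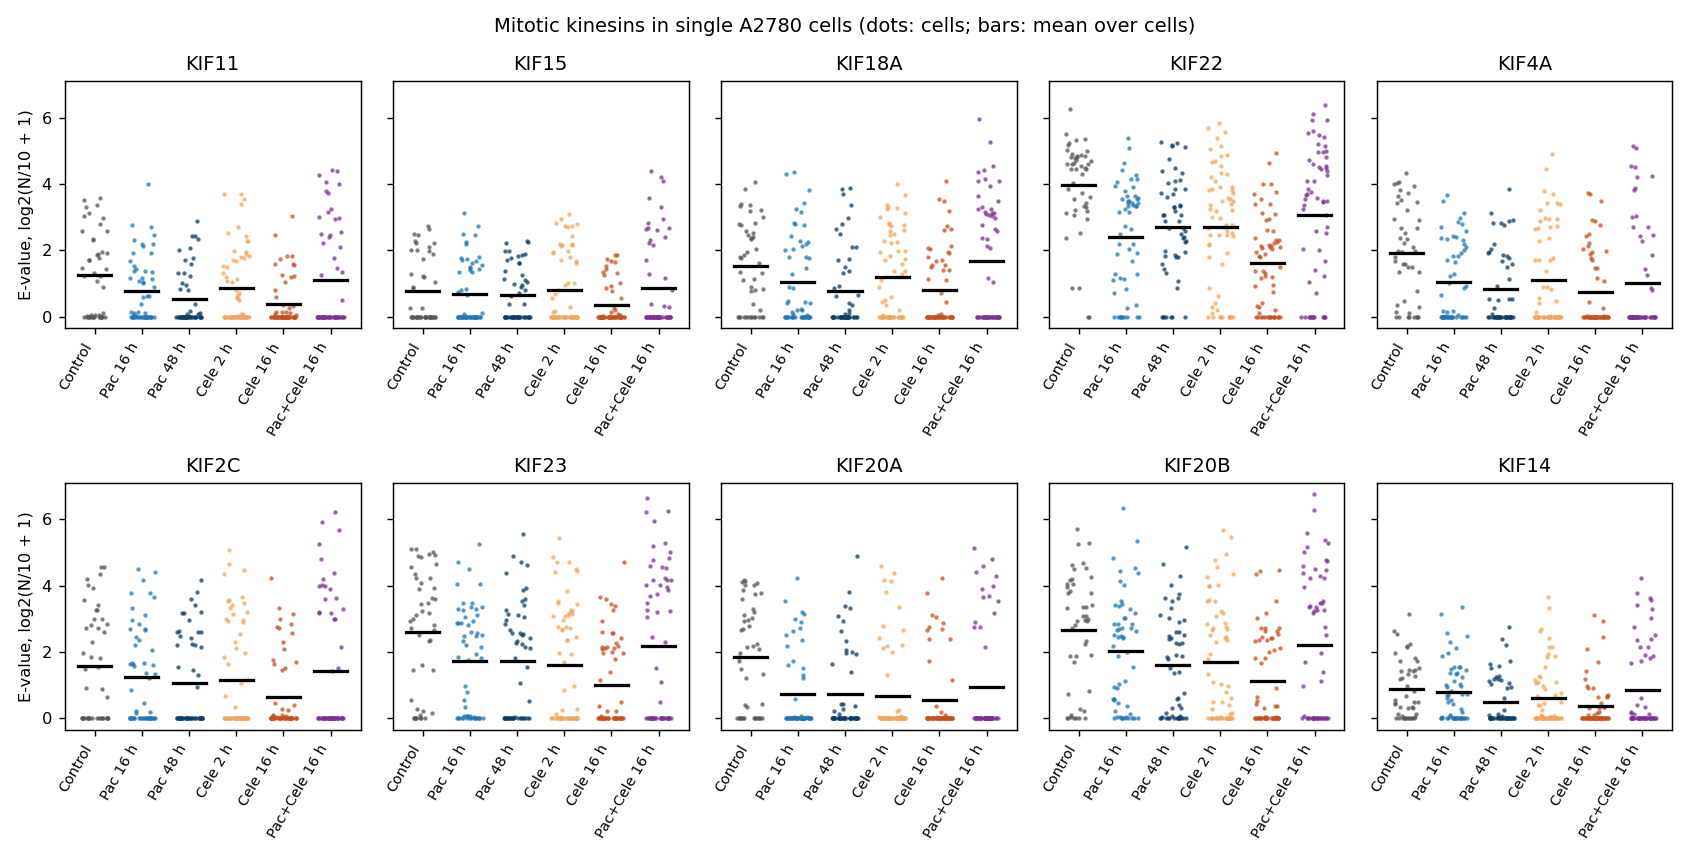
E-values, log2(N/10 + 1), of the 10 mitotic kinesins (vertical axis) in single A2780 cells of the 6 conditions (horizontal axis). Dots are cells and black bars are means over cells. KIF22 has the highest mean in each condition, 3.96 in control and 1.63 in Cele 16 h, and the mean of KIF15 stays within 0.44 of control.

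Among the chromosome-moving kinesins, KIF22 had the largest difference from control of all 10 genes in the 4 single-drug conditions on the deposited scale, while at equal totals KIF20A exceeded it in Pac 48 h and Cele 2 h. KIF22, also called Kid, is a DNA-binding kinesin that pushes chromosome arms towards the spindle equator (chr16:29790727-29805385 in GENCODE 44, plus strand). Its E-value had a median of 4.47 and a maximum of 6.26 in control cells. The median was 2.94 (maximum 5.38) in Pac 16 h, 2.90 (5.25) in Pac 48 h, 2.97 (5.83) in Cele 2 h, 1.78 (4.94) in Cele 16 h, and 3.55 (6.39) with the combination. The ranges of the conditions overlapped, but the middle of the distribution was lower in all 5 treatments. The mean differed from control by -1.57 and -1.25 in Pac 16 h and Pac 48 h, by -1.25 and -2.33 in Cele 2 h and Cele 16 h, and by -0.90 with the combination. With the same total per cell the differences were -0.97, -0.71, -0.76, -1.36 and -1.26, so KIF22 was past the limit in all 5 treatments on both scales. In Cele 16 h 0.963% of the genes compared had a lower difference than KIF22, and with the combination 0.559%. As a mean of linear values KIF22 was 204 normalised TPM in control and 39.9 in Cele 16 h. An antisense gene overlaps 7.83% of the exonic bases of KIF22, and reads of the overlap cannot be told apart, since Smart-seq2 does not mark strand and the study's methods give default RSEM settings, which do not use strand.

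KIF4A, a chromokinesin that helps condense chromosomes and sets the length of the central spindle, differed mostly in how many cells it was detected in. It was detected in 82.6% of control cells (38 of 46, exact 95% interval 68.6 to 92.2), in 57.1% and 47.2% of cells in Pac 16 h and Pac 48 h, in 49.2% and 39.3% in Cele 2 h and Cele 16 h, and in 33.9% of combination cells (20 of 59, 22.1 to 47.4). These intervals cover counting error only. Its median E-value was 1.96 in control, 0.17 in Pac 16 h and 0 in the other 4 treatments. The mean was lower by 0.89, 1.09, 0.81, 1.17 and 0.90 in the same order of treatments, past the limit each time. On the same-total scale it passed only in Pac 48 h (-0.72) and with the combination (-0.88), while the other 3 values lay between -0.57 and -0.49. KIF4A has a near-identical intronless copy, KIF4B, so part of its reads may be uncertain.

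KIF18A, which dampens microtubule growth at kinetochores so that chromosomes line up, had a median E-value of 1.47 in control (maximum 4.06), 0.22 in Pac 16 h, 0.60 in Cele 2 h, 0 at the later time of each drug, and 1.06 with the combination (maximum 5.97). Its mean was lower past the limit in Pac 48 h (-0.74) and in Cele 16 h (-0.73), and stood at +0.14 with the combination. Neither drop passed with the same total, where the values were -0.47 and -0.16. KIF2C, or MCAK, which takes microtubule ends apart to correct faulty attachments, was called only in Cele 16 h, where its mean was 0.64 ± 1.13 (61 cells) against 1.57 ± 1.64 in control (46 cells). That difference of -0.93 became -0.46 with the same total.

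The cytokinesis kinesins KIF20A, KIF20B and KIF23 were called lower in most treatments. KIF14 was not called, at a low level where the scale understates differences. KIF20A, or MKLP2, carries the Aurora B complex to the central spindle (chr5:138178719-138187723, plus strand). It was detected in 69.6% of control cells (32 of 46, interval 54.2 to 82.3) and in 35.7%, 37.7%, 28.6%, 31.1% and 25.4% of cells in Pac 16 h and Pac 48 h, in Cele 2 h and Cele 16 h and with the combination. Its median was 2.03 in control and 0 in all 5 treatments. Means were lower by 1.14, 1.12, 1.19, 1.31 and 0.92, and by 0.80, 0.76, 0.89, 0.80 and 0.89 with the same total, so KIF20A passed the limit in 5 of 5 treatments on both scales. Antisense genes overlap 5.35% of its exonic bases.

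KIF23, or MKLP1, the motor of centralspindlin at the midzone, had a median of 2.97 and a maximum of 5.11 in control. The median was 1.90 in Pac 16 h, 2.12 in Pac 48 h, 0.84 in Cele 2 h, 0 in Cele 16 h, and 1.52 with the combination, whose highest cell reached 6.64. Its mean was lower by 0.88, 0.86, 0.99 and 1.59 in the 4 single-drug conditions and by 0.43, inside the limit, with the combination. On the same-total scale KIF23 passed for both times of celecoxib (-0.66 and -0.93) and the combination (-0.67), and not for paclitaxel (-0.44 and -0.47).

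KIF20B, a related kinesin needed to finish cytokinesis, was lower by 0.63, 1.05, 0.96 and 1.52 in the single-drug conditions and by 0.45, inside the limit, with the combination. In Pac 16 h the difference became -0.13 with the same total, whereas the other 4 values were past the limit, between -0.84 and -0.64. KIF14, which binds PRC1 and citron kinase at the midbody, was never called on mean E-values over all cells. Its mean linear level was 12.7 normalised TPM in control, 6.55 in Pac 48 h and 5.60 in Cele 16 h. Over all settings run, it passed the limit as lower in 3 of 8 for Pac 48 h and 2 of 6 for Cele 16 h. It passed in 0 of 6 for Pac 16 h and 1 of 6 for Cele 2 h. With the combination 1 of 9 settings gave lower and 1 gave higher. It was detected in 76.1% of control and 42.4% of combination cells, while its mean E-value of 0.89 ± 0.88 in control stood beside 0.85 ± 1.30 in the combination.

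Of the kinesins that build the bipolar spindle, KIF11 was called lower only at the later time of each drug, and KIF15 was not called. KIF11, or Eg5, slides antiparallel microtubules to push the poles apart. Its median was 1.23 in control (maximum 3.58), 0.13 in Pac 16 h, 0.07 in Cele 2 h and 0 in the other 3 treatments, with maxima between 2.88 and 4.43. Its mean was lower past the limit in Pac 48 h (-0.72) and Cele 16 h (-0.86), and neither passed with the same total, where both were -0.41. At the earlier times KIF11 was also below control, inside the limit (-0.47 in Pac 16 h and -0.39 in Cele 2 h). From the earlier to the later time it differed by -0.26 for paclitaxel and -0.47 for celecoxib, both inside the limit. KIF15, which can take over part of the work of KIF11, was detected in 45.7% of control cells and in 34.4% to 47.2% of treated cells. Its mean difference from control ran from -0.44 in Cele 16 h to +0.09 with the combination. KIF15 is weakly expressed, where the scale understates differences. Its mean linear level was 12.1 normalised TPM in control and 4.01 in Cele 16 h, where it passed the limit as lower in 2 of 6 settings. In the other single-drug conditions no setting passed, and with the combination 1 of 9 gave higher.

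Set beside the whole table, the counts looked different for the single drugs and the combination. In Pac 16 h 5 of the 10 kinesins were lower, where 37.3% of the 9655 genes compared were lower (0.0932% higher). At 48 h it was 7 of 10, beside 26.6% of genes lower (0.922% higher). Celecoxib gave 5 of 10 at 2 h, beside 25.7% (1.12% higher), and 8 of 10 at 16 h, beside 43.9% (0.383% higher). With the combination 3 of 10 were lower (KIF20A, KIF22 and KIF4A), where 1.76% of genes were lower and 30.4% were higher. No kinesin was higher past the limit in any treatment. The median difference of the 10 was -0.55 and -0.80 in Pac 16 h and Pac 48 h, -0.61 and -1.05 in Cele 2 h and Cele 16 h, and -0.29 with the combination. The medians of all genes were -0.41, -0.26, -0.26, -0.48 and +0.33. All 5 comparisons used the same control cells. Within block 4, which holds control and 31 cells of Pac 48 h, 6 kinesins were lower and the median was -0.63.

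With the same total per cell, 2, 4, 4, 4 and 5 of the 10 were lower in that order, and none was higher. The shares of all genes lower were then 10%, 5.78%, 8.12%, 7.95% and 5.8%, and the shares higher 1.4%, 3.28%, 3.31%, 7.37% and 5.96%. The median difference of the kinesins was -0.15, -0.47, -0.33, -0.52 and -0.49, beside medians of all genes between -0.07 and +0.03. Among cells with at least 6000 genes detected, on the deposited scale, 2 kinesins were lower in Pac 16 h and 2 in Cele 2 h.

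**Figure D2:**
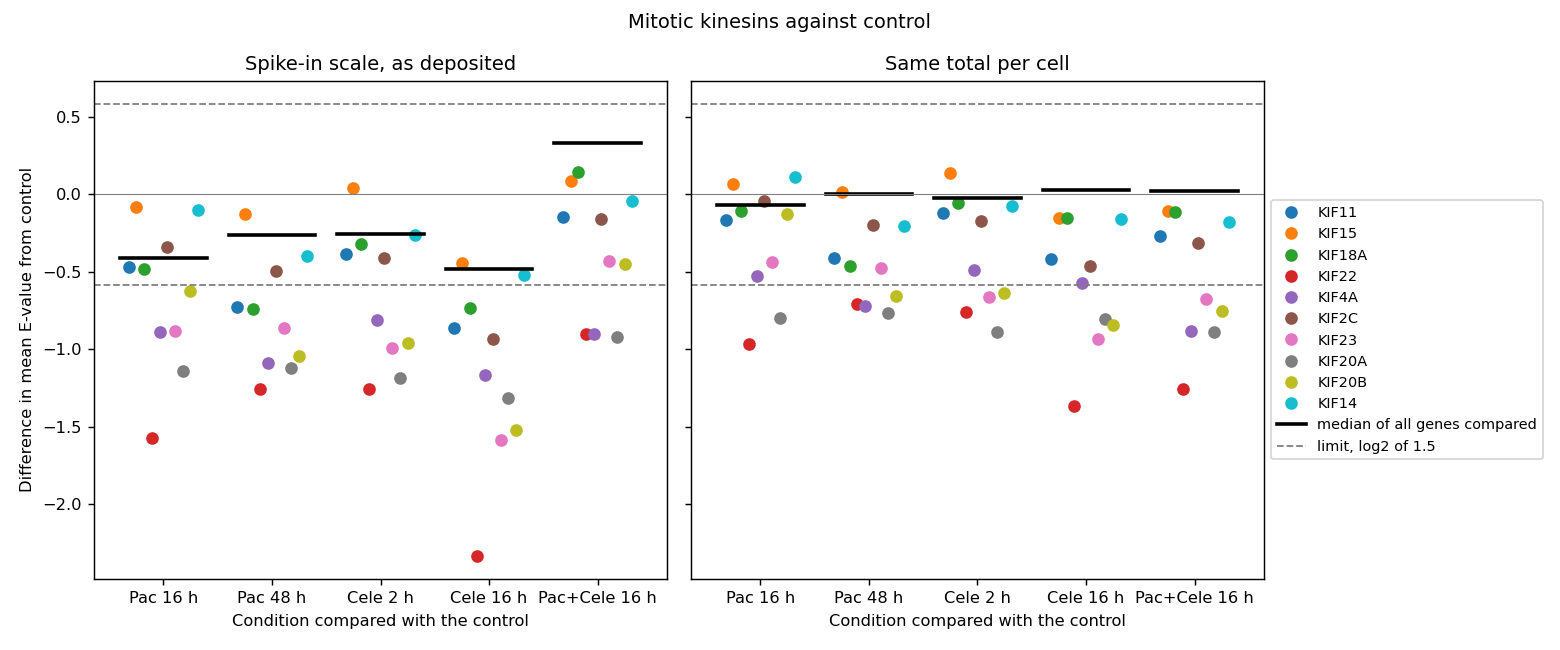
Difference in mean E-value from control (vertical axis) of each kinesin (coloured dots) in the 5 treatments (horizontal axis), as deposited on the left and with the same total per cell on the right. Black bars are the medians of all genes compared and dashed lines the limit of log2 of 1.5. KIF22 and KIF20A lie under the lower limit in all 5 treatments in both panels, and with the combination the deposited median of all genes is +0.33 while that of the kinesins is -0.29.

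The combination result depended on how cells were averaged. As log2 ratios of linear means, which weight the cells with the most mRNA, 0 kinesins were lower and 4 were higher, and the median of the 10 was +0.31. KIF20A (-0.49), KIF22 (-0.27) and KIF4A (-0.39) kept their direction but not the call. With medians over cells 7 were lower. Among cells with at least 6000 genes detected (36 combination and 39 control cells) the median difference was +0.04, with 3 kinesins still lower. The combination cells came from 2 index blocks, where block 1 alone (34 cells) gave 3 lower and a median of -0.02 and block 3 alone (25 cells) gave 5 lower and a median of -0.60.

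Each kinesin was detected in a smaller share of combination than of control cells. The detecting cells had more of it except for KIF22, in a condition whose median total was 1.40 times that of control. Among cells in which a kinesin was detected, a measure added after the values were seen, the mean E-value was higher in the combination than in control for 9 of 10 genes. KIF11 was 1.85 ± 1.10 (31 cells) in detecting control cells and 2.81 ± 1.10 (23 cells) in detecting combination cells, KIF18A 2.13 ± 1.03 and 3.28 ± 1.07, KIF20A 2.68 ± 1.17 and 3.72 ± 0.85, and KIF23 3.15 ± 1.53 and 4.00 ± 1.42. KIF22 was the exception, at 4.14 ± 1.12 and 3.93 ± 1.42. In Cele 16 h detecting cells were lower than in control for all 10 genes. For KIF22 they stood at 2.16 ± 1.18, and for KIF18A at 1.87 ± 1.02.

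**Figure D3:**
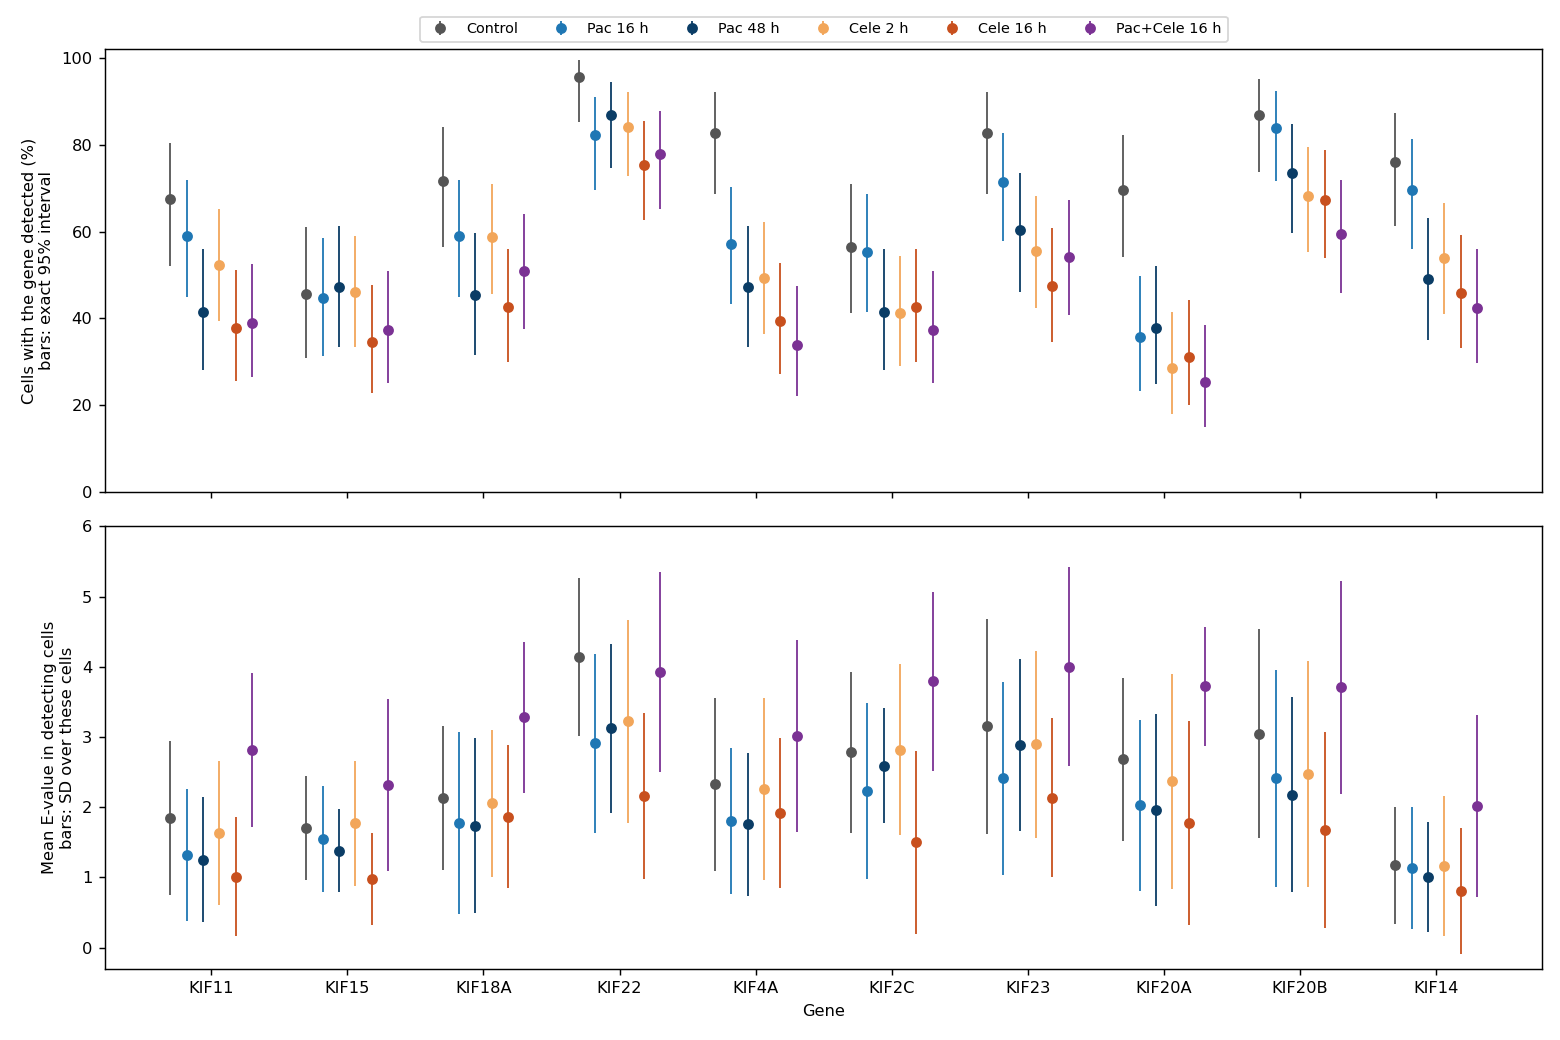
Share of cells with each kinesin detected in per cent, with exact 95% intervals (top), and mean E-value in those cells, with the SD over them (bottom), for the 10 genes (horizontal axis) in the 6 conditions. The share with KIF4A is 82.6% in control and 33.9% with the combination, while detecting combination cells are at 3.02 and detecting control cells at 2.33.

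Counted per cell, fewer of the kinesins were detected in every treatment than in control. The median control cell had 8 of the 10 detected, and the medians were 6 and 5 in Pac 16 h and Pac 48 h, 5 at both times of celecoxib, and 4 with the combination. Cells with 2 or fewer, a limit set after the distribution was seen, made up 4.35% of control cells (2 of 46, exact interval 0.531 to 14.8). They made up 8.93% and 15.1% in Pac 16 h and Pac 48 h, 25.4% and 24.6% in Cele 2 h and Cele 16 h, and 35.6% with the combination (21 of 59, 23.6 to 49.1). Cells with 8 or more made up 56.5% in control (41.1 to 71.1) and, in the same order of treatments, 35.7%, 20.8%, 34.9%, 14.8% and 22.0% (12.3 to 34.7 for the last). In the combination both ends were filled, with 21 cells at 2 or fewer and 13 at 8 or more. The share at 2 or fewer differed between its index blocks, at 23.5% in block 1 (8 of 34) and 52.0% in block 3 (13 of 25). Block 1 alone was thus close to the 2 celecoxib conditions.

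**Figure D4:**
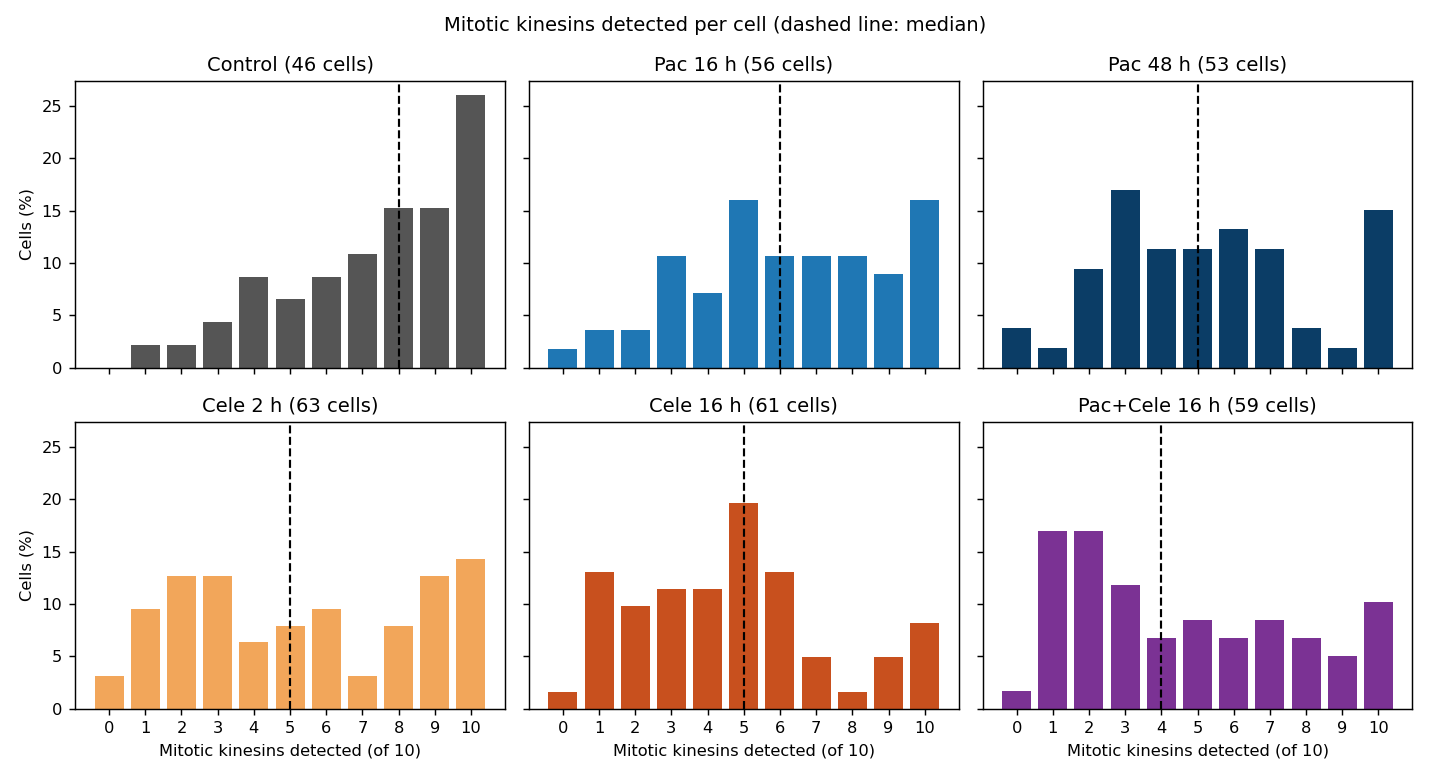
Share of cells in per cent (vertical axis) by the number of the 10 mitotic kinesins detected (horizontal axis), one panel per condition. Dashed lines are medians, 8 in control and 4 with the combination, where 35.6% of cells have 2 or fewer (23.5% in index block 1 and 52.0% in block 3).

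The number detected also moved with depth. Across cells of a condition it correlated with the number of genes detected, at Pearson's r of 0.66 in control (46 cells), 0.60 and 0.35 in Pac 16 h and Pac 48 h (56 and 53 cells), 0.67 and 0.44 in Cele 2 h and Cele 16 h (63 and 61 cells) and 0.54 with the combination (59 cells). Spearman's rho was 0.64, 0.57, 0.35, 0.73, 0.44 and 0.46. Both numbers come from the same cells and reads, so these are descriptions. Among cells with at least 6000 genes the median was 8 in control, 8 in Pac 16 h, 6 in Pac 48 h, 8 in Cele 2 h, 5 in Cele 16 h, and 5.5 with the combination. In these deeper cells 0 of 39 control cells, which allows a share of up to 7.69%, and 11 of 36 combination cells (30.6%) had 2 or fewer. The lower median in Pac 16 h and in Cele 2 h was thus not seen in deeper cells, while that of the other 3 treatments was. The shares still differed in these 2 conditions. Deeper cells with 8 or more made up 64.1% in control, 53.1% in Pac 16 h and 55.3% in Cele 2 h. Those with 2 or fewer made up 3.13% in Pac 16 h (1 of 32) and 5.26% in Cele 2 h (2 of 38). By index block the combination had a median of 5 in block 1 (34 cells) and 2 in block 3 (25 cells), with median genes detected of 6190 and 6129. Fewer dividing cells and less mRNA per dividing cell cannot be told apart in means over cells.

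As a share of the summed level of the 9664 genes of the table in a cell, the summed kinesins had a median of 385 ppm in control. The medians were 271 and 191 in Pac 16 h and Pac 48 h, 201 and 163 in Cele 2 h and Cele 16 h, and 164 with the combination. On the spike-in scale the combination and control were closer, with a mean sum of 692 and 637 normalised TPM and a median of 377 and 559. The highest combination cell reached 5029.

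The combination was next set against each drug alone at 16 h. Against paclitaxel, 2 kinesins were higher (KIF18A by 0.62 and KIF22 by 0.67), where 62.5% of genes were higher. The median of the 10 was +0.20, beside +0.80 for all genes. Within block 1, which holds all Pac 16 h cells, 3 were higher and the median was +0.47. At equal totals both differences turned below 0 (-0.01 and -0.29), all 10 kinesins lay below 0, and KIF20B was lower (-0.62), where 1.64% of genes were. Against celecoxib, 6 of 10 were higher (KIF11, KIF18A, KIF20B, KIF22, KIF23 and KIF2C), beside 66% of genes. Within block 3, which holds all Cele 16 h cells and 25 combination cells, 3 were higher and the median was +0.47, beside +0.74 with both blocks. None of the 10 passed with the same total, where the median was +0.07.

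Between the 2 times of each drug few kinesins passed the limit. No kinesin passed the limit between Pac 16 h and Pac 48 h, where 0.352% of genes were lower and 7.89% higher. Differences ran from -0.42 for KIF20B to +0.32 for KIF22, with 7 of 10 below 0, and 8 of 10 at equal totals. From Cele 2 h to Cele 16 h all 10 kinesins lay below 0 (9 at equal totals) and 2 passed, KIF22 (-1.08) and KIF23 (-0.59), beside 19.4% of genes lower. KIF22 stayed past the limit with the same total (-0.60) and KIF23 did not (-0.27). As ratios of linear means all 10 passed, with a median of -1.19.

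Within each condition the kinesins varied together from cell to cell. At equal totals per cell, Pearson's r was above 0 for 45 of 45 pairs in all 6 conditions, with medians between 0.33 and 0.44. Averaged over the conditions, the highest pair was KIF20A with KIF2C (0.53) and the lowest KIF22 with KIF23 (0.21). KIF2C was the most typical, with a mean r of 0.74 with the average of the other 9. KIF18A (0.47) and KIF22 (0.48) were the least. In control, KIF22 and KIF23 were close to unrelated across 46 cells (0.01). The cells of a condition share library, run and depth, and the average of the 10 still correlated with the log2 total on this scale, at r between 0.25 and 0.50.

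**Figure D5:**
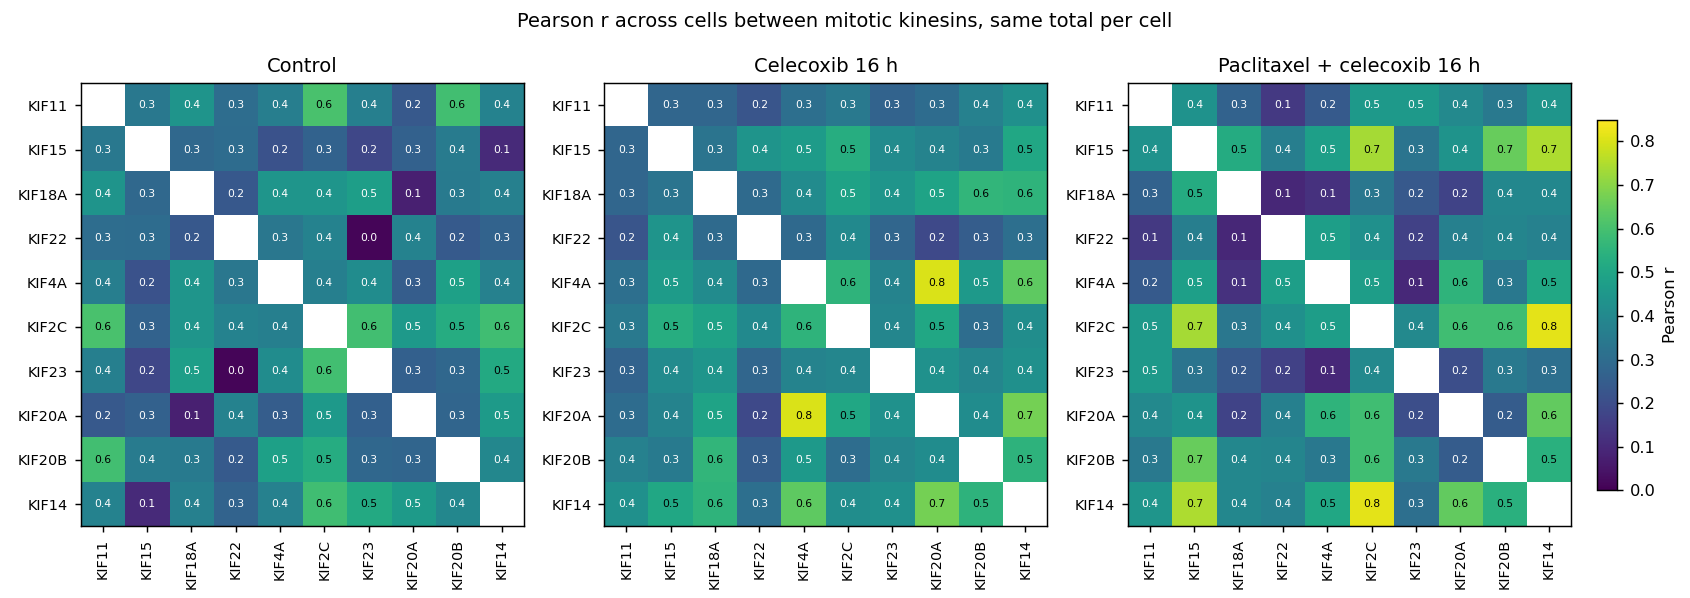
Pearson's r across cells between each pair of mitotic kinesins, with the same total per cell, in control (46 cells), celecoxib 16 h (61 cells) and the combination (59 cells). The colour runs from 0 to 0.85; all pairs are above 0, and the highest of these panels is KIF14 with KIF2C in the combination, at 0.82.

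Of 7562 other genes, the 10 that followed the average of the kinesins most closely across cells, as the mean r of the 6 conditions, were TOP2A (0.80), CDCA8 (0.79), UBE2C (0.78), NDC80 (0.77), NUSAP1 (0.77), CENPF (0.75), PLK1 (0.75), NEK2 (0.74), ASPM (0.74) and DLGAP5 (0.74). The median over all 7562 was 0.03.

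The other kinesins are given for comparison. The 13 further kinesin genes of the table were taken by symbol, and kinesins that act in mitosis were not removed from them. Many of them carry cargo in cells that are not dividing. Among them 2, 4, 3 and 4 were lower in the 4 single-drug conditions and 0 with the combination, where 2 were higher. The shares of all genes lower were 37.3%, 26.6%, 25.7% and 43.9%, and 30.4% of all genes were higher with the combination, so that in Pac 48 h and Cele 2 h the share of these genes was near that of all genes. E-values do not go below 0, so a gene with a control mean under 0.58 cannot be called lower. Here these were KIF18B (0.21), KIF3B (0.31), KIF13A (0.40), KIF1A (0.48) and KIF16B (0.51). The lowest of the mitotic kinesins in control, KIF15, was at 0.78, so the counts of the 2 groups are not alike. Among those detected in at least 30% of the cells on both sides, the largest differences were KIF5B (-1.21), KIF2A (-1.15) and KIF21A (-1.01) in Cele 16 h and KIF27 (+0.93) with the combination. KIF9, which this rule leaves out, was at -1.55 in Cele 16 h (-1.07 at equal totals), and was named after its value was seen. At equal totals their counts of lower genes were 0, 0, 0, 1 and 0.

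Mitotic genes listed beside the kinesins were lower too, by more than the kinesins at the median. The list held genes of the spindle, midzone, cytokinesis and checkpoint, and also CCNA2, CCNB1, CCNB2, CDK1 and the transcription factors FOXM1 and MYBL2. Control means ran from 0.39 (CIT) to 6.30 (CCNB1) in this list and from 0.78 to 3.96 over the kinesins. The scale understates differences of weakly expressed genes, and the part of expression level in this contrast was not tested. Of the 40 genes of this list 28 and 32 were lower in Pac 16 h and Pac 48 h, 29 and 33 in Cele 2 h and Cele 16 h, and 17 with the combination, where 2 were higher. The median differences were -0.87, -1.03, -0.81, -1.56 and -0.45. The largest were in Cele 16 h: AURKB, the kinase that KIF20A carries to the midzone (-4.00), CCNB1 and CCNB2, the B cyclins of mitotic entry (-3.60 and -3.01), and CDC20, an activator of the anaphase-promoting complex (-3.18). The counts were 11, 22, 16, 23 and 23 at equal totals. Of 22 DNA replication genes 20, 20, 14, 21 and 8 were lower and none was higher, led in Cele 16 h by RRM2, a subunit of ribonucleotide reductase (-3.36), MCM7 of the replicative helicase (-2.81), GINS2 (-2.40) and PCNA, the sliding clamp (-2.24). At equal totals 9, 12, 8, 13 and 11 of the 22 were lower. Beside these counts, the shares of all genes lower were 37.3%, 26.6%, 25.7%, 43.9% and 1.76% as deposited and 10%, 5.78%, 8.12%, 7.95% and 5.8% at equal totals. These lists were not tested as sets.

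The authors' deposited annotation gives each cell a state of global transcription, assigned from the same values. In conditions with both, cells that it calls suppressive had fewer kinesins detected than cells it calls control. In Pac 16 h the median was 5 kinesins in 31 suppressive cells and 8 in 23 control-state cells, with mean E-values over the 10 of 0.79 ± 0.62 and 1.65 ± 0.83. The medians were 3 (25 cells) and 6 (28 cells) in Pac 48 h, and 3 (33 cells) and 6 (26 cells) in Cele 2 h. In the same pairs the median number of genes detected was 5840 and 6490, 5871 and 6572, and 5861 and 6500. The part of depth in this difference was not tested.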

How the data were processed

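The authors trimmed reads with Trim Galore, used RSEM 1.3.0 with Bowtie2 to estimate TPM against hg38 transcripts, scaled each cell to its spike-in RNA, removed 34 of 372 cells and filtered genes on detection. The file deposited by the authors gives log2 values for 338 cells, the E-values, computed as log2(N/10 + 1). No columns of cells were identical. Reads per cell are unknown, so depth is described by genes detected. Doublets were not called, since that needs counts.

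The kinesins and the gene lists were chosen with earlier results of these data known. All 10 kinesins are named in all conditions. From other lists the 4 genes with the largest difference from control are named, among genes present in 30% or more of cells on both sides. KIF1BP, which binds kinesins and is not one, was left out of the further kinesins. Linear values N were recovered from the E-values. For the same-total scale each cell was rescaled to the median total. Calls used a limit of log2 of 1.5 on mean E-values over the 9 comparisons. Intervals are exact Clopper-Pearson at 95%. Alternatives were that scale, linear means, medians, a pseudocount of 1 in place of 10, index blocks alone, no debris well, cells with at least 6000 genes, detection above an E-value of 1 and other detection filters. Levels in detecting cells, the limits of 2 and 8 kinesins per cell and the comparison of each drug with and without the other were added after the data were seen. The steps were tested on simulated data. Genes were placed with GENCODE 44 on hg38, and promoters came from RefSeq on GRCh38.p14, which held all 10 kinesins, with 2 entries for KIF22, of which the first is printed. Tools were numpy 2.4.6 under Python 3.11.15, with pandas 2.3.3, matplotlib 3.10.9 and scipy 1.17.1.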

Additional observations from a re-analysis of the deposited data

Results flagged for a closer look

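The effect of each drug alone at 16 h was set beside the effect of the same drug on top of the other. On the deposited scale some kinesins passed the limit in opposite directions. KIF22 was at -2.33 for celecoxib alone against control and at +0.67 for the combination against paclitaxel, which is a difference of 3.01 between the effects. For paclitaxel KIF22 was at -1.57 alone and +1.44 on top of celecoxib, and the difference is the same 3.01 by construction. KIF18A was at -0.73 and +0.62 for celecoxib, 1.35 apart. For paclitaxel KIF20B was at -0.63 and +1.07, 1.70 apart, and KIF23 at -0.88 and +1.16, 2.04 apart. These differences were not tested, since each condition is 1 sample. Opposite directions past the limit were found for 37.6% of the 9655 genes for celecoxib and for 33.8% for paclitaxel, and the median difference between the effects was 1.33 over all genes and 1.27 over the 10 kinesins. With the same total per cell no kinesin passed in opposite directions, nor did more than 0.684% of genes, and KIF22 was at 1.08 and KIF20A at 0.71 between the effects, beside a median of 0.06 over all genes.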

How the results depend on the processing

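Each condition is 1 sample, so no error between cultures is known. No paired analysis was possible, since the conditions hold different cells and the labels name no culture shared between them. KIF22 and KIF20A were below control in all 5 treatments under every alternative run, but with ratios of linear means both were inside the limit with the combination. Leaving out the debris well and changing the detection filter moved no count over 1.5 times. The cause of the other shifts was not tested. With the same total per cell, the kinesins lower than control were 2 in Pac 16 h and 4 in Pac 48 h (median -0.47), 4 in Cele 16 h (-0.52) and 5 with the combination, and the median in Cele 2 h was -0.33. Against paclitaxel the combination then gave 1 lower and 0 higher, with a median of -0.25, KIF18A at -0.0082, KIF20B at -0.62 and KIF22 at -0.29. Against celecoxib it gave 0 higher (median 0.068), and 1 was lower from Cele 2 h to 16 h. With ratios of linear means the median in Pac 16 h was -0.74, and the combination gave 0 lower and 4 higher than control (median 0.31, KIF14 at 0.65 and KIF2C at 0.64). It gave 10 higher than paclitaxel (median 1.15, KIF4A at 0.94) and 10 higher than celecoxib, while 3 were lower from Pac 16 h to 48 h and 10 from Cele 2 h to 16 h (median -1.19). With medians over cells the median difference was -1.08 in Pac 16 h, 8 were lower in Cele 2 h, and 7 with the combination (-1.10). The combination then had 1 lower than paclitaxel (median -0.15, KIF14 at -0.59) and a median of 0 against celecoxib, and 2 and 4 were lower at the later times. With a pseudocount of 1 the median in Pac 16 h was -0.98, 9 were lower in Cele 2 h, 8 with the combination (-0.90), 3 from Pac 16 h to 48 h and 9 from Cele 2 h to 16 h (-0.91). Cells with at least 6000 genes gave 2 lower in Pac 16 h and 2 in Cele 2 h (median -0.17), a median of 0.037 with the combination, 1 higher than paclitaxel, and 8 lower from Cele 2 h to 16 h (-0.80). The median number of kinesins detected in these cells was 8 in Pac 16 h, 8 in Cele 2 h and 5.5 with the combination. Index block 3 alone gave 5 lower with the combination (-0.60), 0 higher than paclitaxel (-0.087), 3 higher than celecoxib (0.47) and a median of 2 kinesins detected. Index block 2 alone gave 1 lower from Pac 16 h to 48 h. With detection above an E-value of 1 the median number detected was 6 in control, 4 in Pac 16 h and 3 in Cele 16 h.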

Other observations

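The make-up of the kinesin mRNA pool was described as the share of each gene in the summed mean linear values. KIF22 made up 32.0% in control and 32.6% in Pac 48 h, and between 23.9% and 29.7% in the other 4 conditions. KIF18A, which aligns chromosomes, made up 5.08% in control, 9.63% in Cele 16 h and 8.77% with the combination. KIF4A and KIF20A, both needed at the central spindle, made up 7.67% and 8.07% in control and 5.38% and 5.28% with the combination, but 9.29% and 8.18% in Cele 16 h. KIF20B and KIF23 together with KIF22 held most of the pool in each condition. Cells with more mRNA weigh more in these shares. The authors' annotation puts 6 cells outside the control and suppressive states in the paclitaxel and celecoxib conditions, 2 in Pac 16 h and 4 in Cele 2 h, in the state named activation. Their median was 10 of 10 kinesins detected in both, with median genes detected of 8137.5 and 7717, and a mean E-value over the kinesins of 3.66 and 3.29.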
